A study of Rattus norvegicus with 18 samples.

Results

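The macrophage marker genes described here are Adgre1, Cd163, Mrc1, Cx3cr1, Aif1, Cd68, Fcgr2a, Csf1r and Msr1, followed through the first hours after the sciatic nerve of the rat was cut. Their probes were every probe on the array, controls aside, that carried one of these names or an accession belonging to one of these genes. This gave 13 probes of 41012, and 9 genes of 35257 gene names. Adgre1 is named Emr1 and Fcgr2a is named Fcgr3 in the array's design, and both were found by accession.

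The animals were male Sprague-Dawley rats, adult, of 180 to 220 g. The left sciatic nerve was cut at mid-thigh by removing 1 cm of it, and 0.5 cm of the proximal stump, the side still joined to the spinal cord, was taken either at once (0 h) or after 0.5 h, after 1 h, after 3 h, after 6 h or after 9 h. All groups, 0 h included, were operated under the same anaesthesia with trichloroacetaldehyde monohydrate, magnesium sulfate and sodium pentobarbital. The 0 h segments are the reference for the later times, and the labels say no more of how those rats were handled. Each time-point was measured on 3 one-colour Agilent arrays, 18 in all, and neither the labels nor the methods state whether an array holds 1 rat or a pool, so the P-values measure the spread between arrays, which may be technical.

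Macrophages of a healthy nerve live between the fibres and around the vessels, take up debris, and depend on signals through the receptor encoded by Csf1r. After injury they are joined by monocytes that arrive from the blood and turn into macrophages in the tissue. Several of the genes are used to tell these populations apart: Adgre1 (F4/80), Mrc1 (CD206), Cd163 and Cx3cr1 are commonly read as markers of settled cells, whereas Cd68, Msr1 and Fc receptor genes are carried by both and rise as phagocytes become active.

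The level of a gene is given here as the log2 of its signal relative to the 75th percentile of the same array, so that a negative level lies below that percentile. Between 65.9% and 93.5% of the spots on an array were well above background, the highest share being that of 6 h replicate 1, and no spot was saturated. The 0 h and 0.5 h arrays were scanned on a first day, the 1 h, 3 h and 6 h arrays with 9 h replicates 1 and 2 on a later day, and 9 h replicate 3 on a day of its own. Changes from 0 h to 1 h, 3 h, 6 h or 9 h therefore cannot be told apart from a difference between scan days, and each comparison with 0 h uses the same 3 arrays of 0 h. No slide held more than 1 time-point. The comparisons of 3 h and of 6 h with 1 h lie within that later day, called the second scan day here.

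Of the 13 probes, 12 were tested, and these covered all 9 genes. The reported probe of every gene except Cx3cr1 was well above background on all 18 arrays, that of Cx3cr1 on 15. Here a gene counts as called where limma gave P below 0.01 before adjustment, and below 0.05 after Benjamini-Hochberg adjustment over all 32116 probes tested. The probe sequences of the genes on which the results turn are given here because they fix what was measured, and each is written 5′ to 3′ with its place on the rn4 genome as the files give it:

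Msr1, chr16:56293586-56293645, plus strand: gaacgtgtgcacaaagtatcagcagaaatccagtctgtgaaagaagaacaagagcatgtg
Fcgr2a, chr13:86905963-86906022, minus strand: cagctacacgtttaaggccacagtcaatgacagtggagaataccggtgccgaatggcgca
Cd163, reported probe, within chr4:160407221-160407922, plus strand: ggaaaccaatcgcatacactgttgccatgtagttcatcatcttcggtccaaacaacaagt
Cd163, second probe, within chr4:160406765-160406920, plus strand: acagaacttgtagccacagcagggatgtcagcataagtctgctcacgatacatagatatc
Adgre1, unplaced sequence, 64821266 to 64823251, plus strand: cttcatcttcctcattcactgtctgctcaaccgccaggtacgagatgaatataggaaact
Aif1, within chr20:3715562-3716143, plus strand: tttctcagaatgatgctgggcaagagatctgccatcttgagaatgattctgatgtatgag

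Each probe had 60 bases, and the spans longer than that, for Cd163, Adgre1 and Aif1, cross an intron. The Fcgr2a probe is listed in the files for a second gene as well, the near-identical Fcgr2al1, so its signal cannot be assigned to Fcgr2a alone. Against the probes of the other Fc receptors, the best ungapped match was 26 of 60 bases with Fcgrt and 25 with Fcgr2b. Those probes can lie in other stretches of their transcripts, so the match cannot show whether this probe binds them. Its match to the whole transcripts was not tested.

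The genes divided by direction. Fcgr2a and Msr1 rose most, 5.84-fold and 6.73-fold between 0 h and 9 h, Cd163 rose 2.93-fold, and Adgre1 was the only one of the 9 called lower at 6 h or 9 h, lying 2.04-fold below 0 h at 6 h. Aif1 was called lower at 1 h and had returned by 9 h. Of the pairs of time-points compared, Cd68 and Mrc1 were called only against 1 h, and Csf1r, by its reported probe, and Cx3cr1 in no comparison. In bulk tissue a fall can reflect fewer cells or less RNA per cell, and these cannot be told apart. The F-test over the 6 time-points called 6 of the 9 genes, against 34.6% of all gene names tested.

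**Figure D1:**
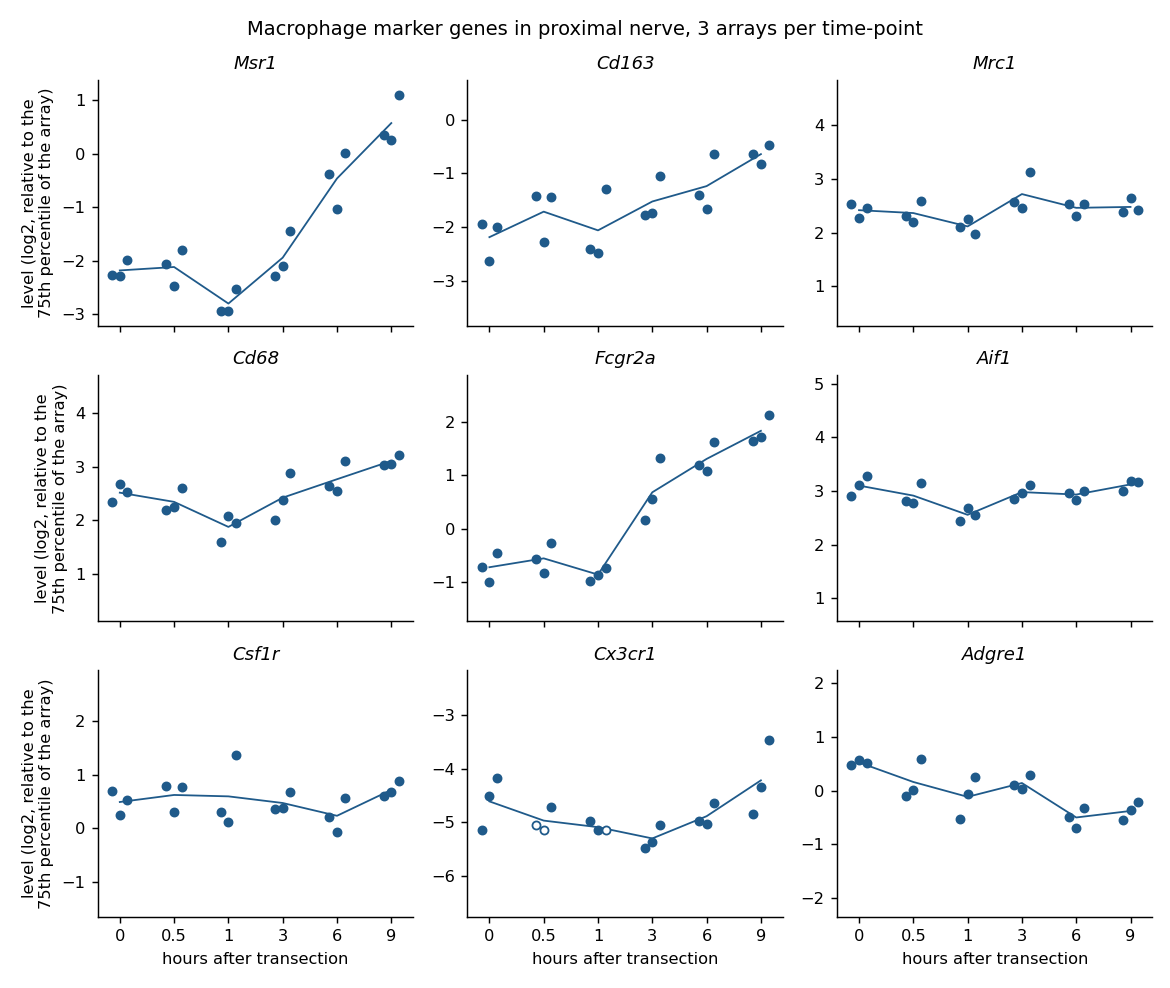
Level of each gene (log2, relative to the 75th percentile of the array) against hours after transection, with 1 point for each of the 3 arrays of a time-point and a line through the means. Open points mark spots not well above background, and every panel spans the same number of log2 units. Msr1 and Fcgr2a climbed from 3 h or 6 h on, Adgre1 ended below its 0 h level, and several panels are lowest at 1 h.

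At 0.5 h none of the 9 genes was called, where 6% of all genes were, and 0 of the 9 had an unadjusted P-value under 0.05. At 1 h 1 gene was called, against 5.63% of all genes, and it was lower, as were 2.04% of all. At 3 h Fcgr2a alone was called, against 14% (7.15% higher). At 6 h 3 genes were called against 25%, Msr1 and Fcgr2a higher (12% of all) and Adgre1 lower (13%). At 9 h 4 were called against 31.1%, as Cd163 joined the higher genes (15.8% of all, with 15.4% lower). Arrays that all lay above those of 0 h were seen for Cd163 and Fcgr2a at 3 h (20.8% of all genes), for Msr1 too at 6 h (24.3%) and for Cd68 too at 9 h (28.6%). Arrays that all lay below were seen for Adgre1 at these times, against 17.8%, 22.4% and 24.9%. With so many genes of the array moving, a count of 3 or 4 in 9 is near the background. What the genes show lies in their sizes and directions, gene by gene.

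**Figure D2:**
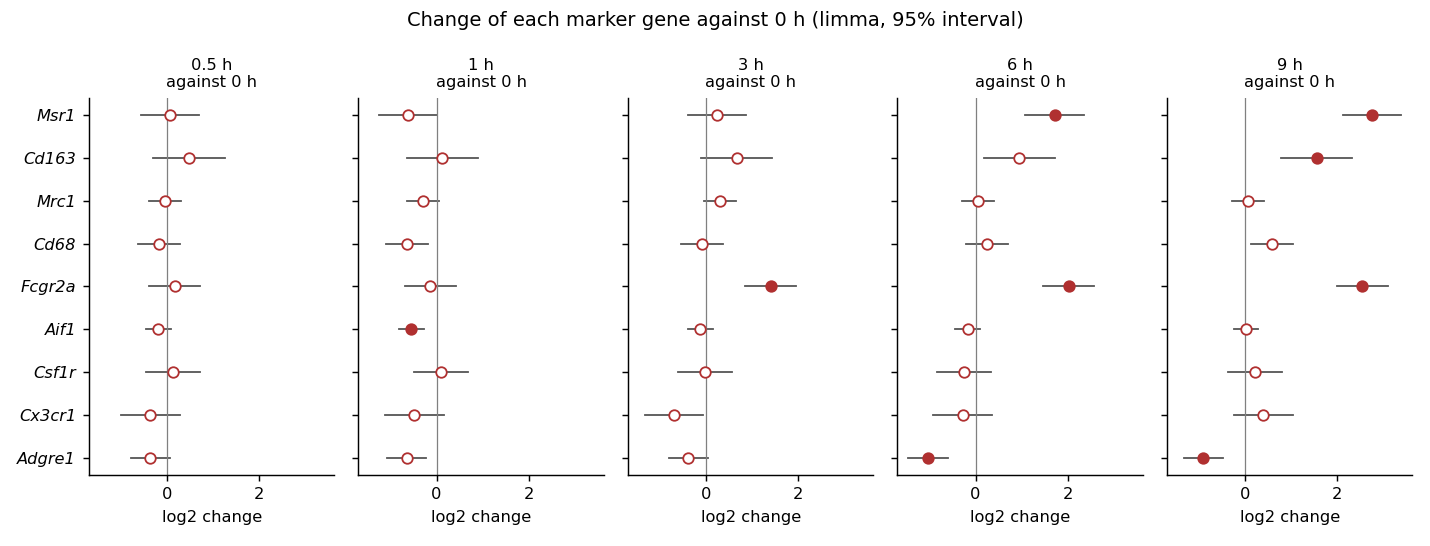
Change of each gene against 0 h (log2) in limma, with 1 panel per time-point, 95% intervals as lines and filled points for called genes. The intervals of Msr1 and Fcgr2a lie far above 0 at 6 h and 9 h, those of Adgre1 below 0, and at 1 h the points of 7 of the 9 genes lie below 0.

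Msr1, the class A scavenger receptor through which macrophages take up modified lipoproteins, changed most by 9 h. Its levels were -2.27, -2.29 and -1.99 on the 0 h arrays and -2.94, -2.93 and -2.53 on the 1 h arrays. They were -2.28, -2.10 and -1.44 on the 3 h arrays, -0.38, -1.03 and 0.02 on the 6 h arrays, and 0.35, 0.26 and 1.1 on the 9 h arrays. All arrays of 6 h and 9 h lay above all arrays of 0 h, and those of 9 h above those of 6 h. The log2 change was 1.72 (SE 0.30, adjusted P = 0.000963 in limma) at 6 h and 2.75 (adjusted P = 2.01e-05) at 9 h. Within the second scan day the rise from 1 h to 6 h was 2.34 (adjusted P = 0.000118), a 5.05-fold increase. The 1 h arrays all lay below the 0 h arrays, by 0.62, which did not pass the test (adjusted P = 0.228). The highest array of 9 h was the one scanned on a day of its own, and without it the change at 9 h was 2.49 (adjusted P = 0.000106).

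Cd163 encodes the receptor that clears haemoglobin bound to haptoglobin. The reported probe read -1.94, -2.63 and -2.01 on the 0 h arrays, -1.79, -1.75 and -1.04 on the 3 h arrays, -1.41, -1.66 and -0.64 on the 6 h arrays, and -0.63, -0.81 and -0.47 on the 9 h arrays. At 0.5 h they had read -1.43, -2.28 and -1.44, and at 1 h the mean was back near that of 0 h. The arrays of 3 h, 6 h and 9 h all lay above those of 0 h. The log2 change was 0.67 at 3 h (adjusted P = 0.238), 0.95 at 6 h (adjusted P = 0.0654) and 1.55 (SE 0.36, adjusted P = 0.00502) at 9 h, where the gene was called. A second probe, to an earlier stretch of the transcript, rose by 1.33 (adjusted P = 0.0118) at 9 h and was called there too. The spread was wide at 1 h, where replicate 3 read -1.29 and the other arrays -2.42 and -2.49. The F-test called the gene (adjusted P = 0.0244), but that call held in only 7 of 18 fits that each left out 1 array, whereas the call at 9 h held in all 18.

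Mrc1, the mannose receptor of settled and alternatively activated macrophages, was not called against 0 h at any time. Its arrays read 2.53, 2.27 and 2.45 on the 0 h arrays, 2.10, 2.26 and 1.98 on the 1 h arrays, 2.56, 2.47 and 3.13 on the 3 h arrays, and 2.38, 2.64 and 2.42 on the 9 h arrays. The 1 h arrays lay below and the 3 h arrays reached above those of 0 h, and 0 h and 9 h overlapped. At 9 h the change was 0.06 with a 95% interval from -0.29 to 0.41. The one call was the rise of 0.60 from 1 h to 3 h (SE 0.16, adjusted P = 0.0297), where a second probe rose by 0.83 (adjusted P = 0.0173). That probe read 0.07, -0.45 and 0.02 on the 0 h arrays and 0.46, 0.22 and 0.83 on the 3 h arrays, which did not overlap, with a change of 0.63 (adjusted P = 0.0518). On the reported probe it was lost without 1 h replicate 1 (adjusted P = 0.0714), 1 h replicate 3 (0.0982) or 3 h replicate 3 (0.116).

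Cd68, a glycoprotein of the endosomes and lysosomes of phagocytes, had its lowest mean at 1 h and was called higher at 6 h than at 1 h. The levels were 2.35, 2.68 and 2.53 on the 0 h arrays, 1.60, 2.09 and 1.95 on the 1 h arrays, 2.65, 2.55 and 3.11 on the 6 h arrays, and 3.04, 3.06 and 3.23 on the 9 h arrays. The 1 h arrays were all below and the 9 h arrays all above those of 0 h. The rise from 1 h to 6 h, within a scan day, was 0.89 (SE 0.21, adjusted P = 0.00752) and was called. Against 0 h the change was -0.64 at 1 h (adjusted P = 0.0944) and 0.59 at 9 h (adjusted P = 0.0429), the latter short of a call because its unadjusted P-value of 0.0144 exceeded 0.01. The 9 h value was called under 6 of 14 other settings.

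Fcgr2a encodes a low-affinity Fc receptor for immunoglobulin G, also carried by neutrophils. Its arrays read -0.72, -0.99 and -0.46 on the 0 h arrays, -0.97, -0.87 and -0.74 on the 1 h arrays and 0.16, 0.55 and 1.32 on the 3 h arrays. They read 1.20, 1.08 and 1.63 on the 6 h arrays and 1.64, 1.72 and 2.12 on the 9 h arrays. Every array from 3 h on lay above every earlier array, and no other of the 9 genes was called higher than at 0 h as early. The log2 change against 0 h was 1.40 (adjusted P = 0.00296) at 3 h, 2.02 (adjusted P = 0.000107) at 6 h and 2.55 (SE 0.26, adjusted P = 1.22e-05) at 9 h. Within the second scan day it rose by 1.54 from 1 h to 3 h (adjusted P = 0.00218) and by 2.16 from 1 h to 6 h (adjusted P = 8.02e-05). Replicate 3 was the highest of the 3 h arrays and lay on a slide of its own, and without it the change at 3 h was 1.08 (adjusted P = 0.00923).

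Adgre1 encodes an adhesion receptor of the EGF-TM7 family, known as F4/80 in the mouse. Its arrays were close together at 0 h, at 0.48, 0.58 and 0.52. They read -0.11, 0.00 and 0.58 on the 0.5 h arrays and -0.54, -0.06 and 0.24 on the 1 h arrays, and read 0.10, 0.03 and 0.29 on the 3 h arrays. At 6 h they read -0.49, -0.70 and -0.32, and at 9 h -0.55, -0.37 and -0.22. From 1 h on every array lay below the 0 h arrays, whereas 0.5 h overlapped them through replicate 3, which lay on another slide than the other arrays of that time. The change was -0.64 at 1 h (adjusted P = 0.0755), -0.38 at 3 h (adjusted P = 0.216), -1.03 (SE 0.20, adjusted P = 0.00199) at 6 h and -0.91 (adjusted P = 0.00343) at 9 h, with calls at 6 h and 9 h. The call at 6 h held under all 14 other settings that could test it, and in all 18 fits without 1 array. None of these adjusts for scan day. From 1 h to 6 h, within a scan day, the change was -0.39 (95% interval -0.81 to 0.04, adjusted P = 0.173), so that the fall was not called within a day.

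Aif1 encodes the calcium-binding protein IBA1 of macrophages and microglia. Its levels were 2.90, 3.12 and 3.28 on the 0 h arrays, 2.44, 2.68 and 2.54 on the 1 h arrays, 2.85, 2.97 and 3.12 on the 3 h arrays, and 3.00, 3.19 and 3.17 on the 9 h arrays. The 1 h arrays were the lowest of the series and did not overlap those of any other time-point. The gene was called lower at 1 h, by 0.55 (a change of -0.55, SE 0.13, adjusted P = 0.0236), and higher again at 3 h (0.42, adjusted P = 0.0466) and 6 h (0.38, adjusted P = 0.0397) against 1 h. At 9 h it was back at its starting level, with a change of 0.02 (95% interval -0.25 to 0.29). The call at 1 h was lost without 0 h replicate 2 (adjusted P = 0.0744), 0 h replicate 3 (0.0899), 1 h replicate 1 (0.0858) or 1 h replicate 3 (0.0643). The calls within the day stood closer to the threshold, and held in 5 of 18 fits without 1 array for 3 h and 6 of 18 for 6 h.

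Csf1r, the receptor for the growth factors CSF1 and IL34 on which macrophages depend, and Cx3cr1, the fractalkine receptor of resident macrophages and patrolling monocytes, gave no call by their reported probes. The Csf1r arrays read 0.69, 0.24 and 0.53 on the 0 h arrays, 0.30, 0.12 and 1.37 on the 1 h arrays, 0.21, -0.08 and 0.57 on the 6 h arrays, and 0.60, 0.67 and 0.89 on the 9 h arrays. Every later time-point overlapped 0 h, with 95% intervals of -0.84 to 0.33 for the change at 6 h and -0.36 to 0.81 at 9 h. Cx3cr1 was dim, at -5.15, -4.51 and -4.18 on the 0 h arrays, -5.47, -5.38 and -5.06 on the 3 h arrays, and -4.85, -4.35 and -3.46 on the 9 h arrays. Its changes were -0.69 at 3 h (adjusted P = 0.139) and 0.39 at 9 h (adjusted P = 0.321), and its F-test gave an adjusted P-value of 0.0729. No direction is given for it, since the sign at 3 h turned with normexp background correction (0.88) and that at 9 h with array weights (-0.17).

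A second and dimmer Csf1r probe, which the files do not place on the genome, disagreed with the reported one. On it Csf1r read -6.34, -6.42 and -6.63 on the 0 h arrays, none of them above background, and between -5.34 and -3.86 on the later arrays. All 15 later arrays lay above the 0 h arrays. Since only a bound is known at 0 h, the levels were at least 4.27-fold higher at 0.5 h and at least 4.35-fold higher at 9 h. The probe passed the filter on dim probes only through the later time-points, so no test is given for this step. The reported probe, far brighter and above background throughout, showed no such step: its 95% interval at 0.5 h ran from -0.45 to 0.72. No direction is given for Csf1r on the strength of either.

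**Figure D3:**
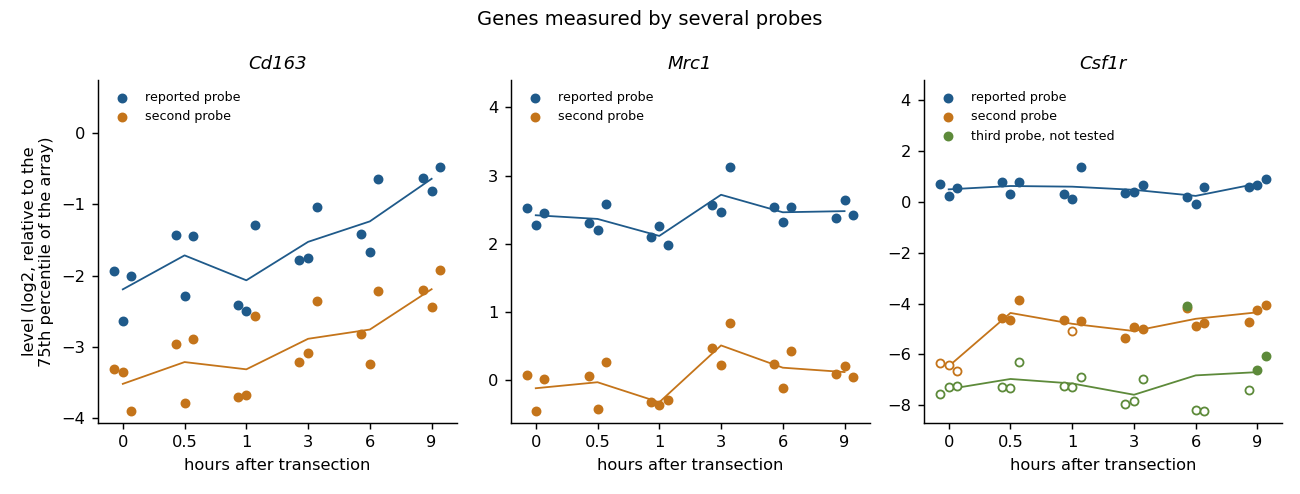
Levels (log2, relative to the 75th percentile of the array) of the genes with more than 1 probe, by hours after transection, with 1 point per array, lines through the means and open points for spots not well above background. The probes of Cd163 and of Mrc1 moved together, whereas the second Csf1r probe stepped up after 0 h and the reported one did not, and levels of different probes are not comparable.

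At 1 h 7 of the 9 lay below 0 h, with a median change of -0.48 against 0.02 over all genes tested, and for 5 of them (Msr1, Mrc1, Cd68, Aif1 and Adgre1) all 3 arrays lay below all 3 arrays of 0 h, against 11.7% of all genes. Of these 1, Aif1, was called. The 1 h arrays belong to another scan day than the 0 h arrays, so the lower levels cannot be told apart from that difference. The other list medians at 1 h included -0.42 for the 11 shared leukocyte and myeloid genes tested, 0 of which lay above 0, -0.28 for the 14 resident macrophage genes (though their summed level was higher, at 235.2 to 263.4 against 207.0 to 225.1 at 0 h), -0.52 for the 7 mast cell markers, whose summed level lay between 9.05 and 11.9, and -4.72 for the 7 skeletal muscle markers, all below 0. Lists of antigen presentation and activation, T cells, and ligands and partners had -0.27, -0.26 and -0.14. Higher or nearer 0 were, among others, 1.47 for the 10 neutrophil markers, all above 0, 1.38 for the erythroid, 0.25 for the Schwann cell and -0.09 for the monocyte genes. The neutrophil, monocyte and antigen presentation lists each count 2 genes above background on no 0 h array. Those genes passed the filter only through later time-points. From 1 h to 3 h 3 of the 9 genes were called and all 3 rose, against 5.59% of all genes called higher and 10.2% called in either direction, and for 4 (those 3 and Msr1) all arrays lay higher, against 13%. From 1 h to 6 h 4 were called, all higher, against 11.4% called higher and 24% in either direction, and for 5 (Msr1, Mrc1, Cd68, Fcgr2a and Aif1) all arrays lay higher, against 18.5%. The median change of the 9 was 0.54 from 1 h to 3 h and 0.38 from 1 h to 6 h, where all genes had medians of -0.04 and -0.05. With only the arrays of the second day in the fit, Fcgr2a alone was still called from 1 h to 3 h, a gene that read -0.14 against 0 h at 1 h (adjusted P = 0.781), while Aif1 (adjusted P = 0.0537) and Mrc1 (adjusted P = 0.0783) were not. From 1 h to 6 h that fit called 4 genes, Aif1 (adjusted P = 0.0384), Cd68 (adjusted P = 0.0285), Msr1 (adjusted P = 0.0013) and Fcgr2a.

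When the time-points were put in order of level for each gene, 38 of 45 neighbouring pairs of time-points overlapped in their arrays. Over all genes tested, 11.5% of such neighbouring pairs did not overlap. The 7 that did not were the steps of Msr1 from 9 h to 6 h, from 6 h to 3 h and from 0 h to 1 h, those of Fcgr2a from 9 h to 6 h and from 3 h to 0.5 h, and the last steps down to 1 h of Cd68 and Aif1. For Msr1 the order was 9 h, 6 h, 3 h, 0.5 h, 0 h and 1 h, and for Adgre1 it was 0 h, 0.5 h, 3 h, 1 h, 9 h and 6 h. Over the 18 arrays, which share their time course and scan days, Fcgr2a and Msr1 had a Pearson correlation of 0.92, Cd68 and Msr1 0.87, and Cd163 correlated at 0.85 with each of Fcgr2a and Msr1. Adgre1 had negative correlations with Fcgr2a (-0.53) and Msr1 (-0.49), and Csf1r correlated weakly with most. These values describe the course of the genes and carry no test.

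The genes whose courses were most alike, out of 13481 with a listed symbol, differed between the risers and Adgre1. Nearest to Fcgr2a were Fcgr2b (r = 0.99), the inhibitory Fc receptor, then Slpi and Steap1. Nearest to Msr1 were Fcer1g (0.97), the signalling chain of Fc receptors, Ltb4r and Itgb2. Those of Cd68 were Ptpn6, Myo1g and Irf5 (0.95 to 0.96), and those of Cd163 were Snx20, Lilrb2 and Stxbp2 (0.93 to 0.94). Adgre1 stood nearest to Alox5 (0.94), the 5-lipoxygenase of leukotriene synthesis, Fcrl2 and Fcmr. Aif1 had no close neighbour, with Zmym1, Ccl6 and Ddx52 at 0.82 to 0.84.

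Lists of related genes gave the setting of these changes. Of 14 genes linked to resident macrophages, 3 were called lower and 1 higher at 9 h (5 and 0 when arrays were set on their medians, 1 and 0 with normexp), with a median change of -0.42 against 0.01 over all genes. Of all genes 15.4% were called lower and 15.8% higher, so these counts lie near the background. Trem2, the lipid-sensing receptor of macrophages, changed by -1.0 (adjusted P = 0.000165) and Gas6, a bridge between dying cells and phagocytes, by -0.76 (adjusted P = 0.00232). Lyve1, the hyaluronan receptor of vessel-associated macrophages, changed by -0.54 with an adjusted P-value of 0.0469 and was not called, and Clec10a, a lectin, rose by 0.49 (adjusted P = 0.0317). The list thus held genes of both directions, as the 9 markers did.

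At 9 h 15.8% of all genes were called higher and 15.4% lower. Of 14 genes linked to monocytes, 12 were above background on at least 1 array of 0 h, and of these 8 were called higher and 2 lower at 9 h. The median change of all 14, with the other 2 counted in, was 1.77, so it does not measure the 12 alone. The other 2, Clec4e and Clec4d, lectin receptors of activated myeloid cells, passed the filter on dim probes only through later time-points and lay at least 41.0-fold and at least 42.2-fold higher at 9 h. Thbs1 rose by 2.76 (adjusted P = 0.000124). Ccr2, the chemokine receptor that draws monocytes into tissue, named here after its values were seen, read -0.86 against 0 h at 1 h (adjusted P = 0.0967) and was called at 6 h (1.61, adjusted P = 0.00123) and 9 h (2.02, adjusted P = 0.000178). Clec4e, Clec4d and Cd14 are expressed by neutrophils as well.

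Among ligands and partners of the 9 genes, 6 of 11 were called higher and 1 lower at 9 h, against 15.8% and 15.4% of all genes. Csf1, a ligand of the Csf1r product, rose at 3 h (0.80, adjusted P = 0.00744), 6 h (1.32, adjusted P = 0.000121) and 9 h (1.08, adjusted P = 0.000379), while Cx3cl1, the ligand of Cx3cr1, named after its values were seen, had a change of 0.03 at 9 h (adjusted P = 0.931). Hp, the haptoglobin that Cd163 binds, rose by 1.83 at 9 h (adjusted P = 0.000182), and Hmox1, the haem oxygenase that acts after Cd163 uptake, by 3.76 at 6 h (adjusted P = 1.84e-06). Both were called at every time from 3 h on, and Cd163 at 9 h. Itgam, a subunit of the complement receptor CR3 of neutrophils and macrophages, rose by 2.02 at 6 h (adjusted P = 0.0223) and read 1.11 at 9 h (adjusted P = 0.16).

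Over all genes, 15.8% were called higher and 15.4% lower at 9 h. Of 11 genes shared by leukocytes and myeloid cells, 8 were called higher and 0 lower at 9 h, among them Itgb2 (2.19, adjusted P = 9e-05), Lyz2 (1.59, adjusted P = 0.000126) and Ptprc, the leukocyte antigen CD45 (1.42, adjusted P = 0.000828). Of 9 further scavenger and lipid genes 8 were above background on at least 1 array of 0 h, and of these 3 were called higher and 1 lower at 9 h. Olr1, the receptor for oxidised low-density lipoprotein, passed the filter only through later time-points and lay at least 12.6-fold higher at 9 h, and Gpnmb rose by 1.36 (adjusted P = 1.3e-05). Of 10 genes of antigen presentation and activation 8 were above background on at least 1 array of 0 h, and of these 1 was called higher and 2 lower at 9 h, near the shares of all genes (15.8% and 15.4%). Of the other 2, Nos2 lay at least 8.34-fold and Cd80 at least 5.86-fold higher at 9 h, and Cd86 read 0.36 (adjusted P = 0.214). Of 9 myeloid transcription factors 5 were called higher at 9 h, with Runx1 at 1.82 (adjusted P = 6.45e-07), Cebpb at 1.57 (adjusted P = 0.00118) and Spi1, the gene of PU.1, at 1.50 (adjusted P = 0.000278), whereas Klf4 rose at 0.5 h by 1.38 (adjusted P = 0.000335) and was at -0.18 by 9 h.

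**Figure D4:**
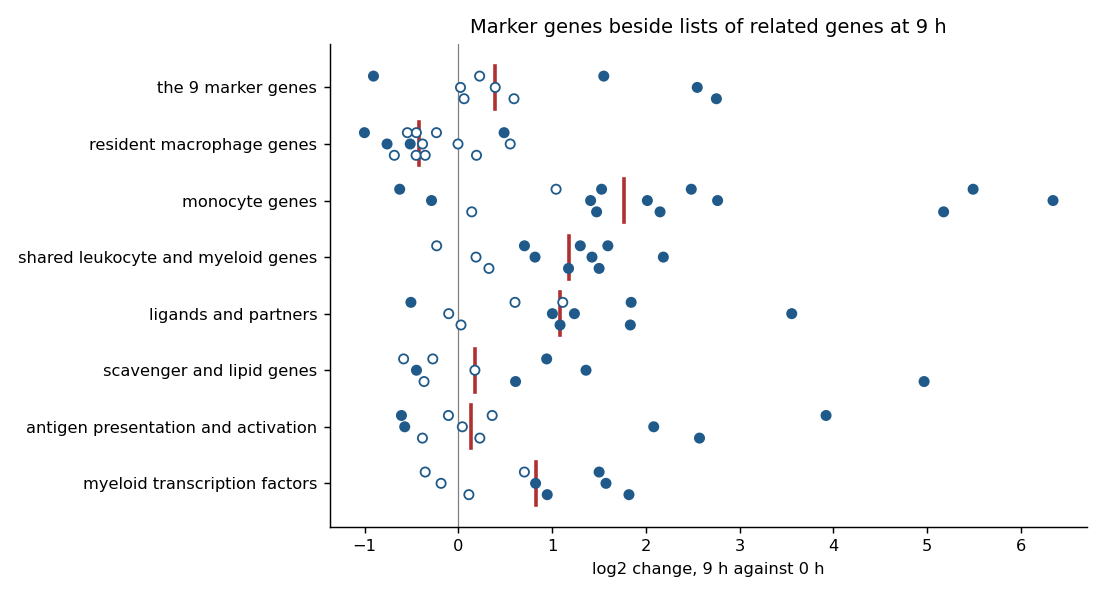
Change at 9 h against 0 h (log2) of the 9 marker genes and of the genes in 7 related lists, with 1 point per gene, filled where called, and a red bar at the median of the list. The median of the resident macrophage list lies at -0.42 and that of the monocyte list at 1.77, with the 9 markers between them at 0.39. The monocyte median counts 2 genes, Clec4e and Clec4d, that passed the filter only through later time-points, so these medians are not on an equal footing.

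Markers of other cell types moved in the same hours. Of all genes 7.15% were called higher at 3 h, 12% at 6 h and 15.8% at 9 h. Of 10 neutrophil markers 8 were above background on at least 1 array of 0 h, and 7 of these were called higher at each time from 3 h on. Their summed level, as a multiple of the 75th percentile, lay between 1.48 and 2.44 on the 0 h arrays, between 4.03 and 5.72 on the 1 h arrays, between 9.71 and 24.3 on the 3 h arrays and between 19.8 and 23.7 on the 9 h arrays. S100a8 and S100a9 were above background on all arrays, and S100a8 rose by 3.12 as early as 0.5 h (adjusted P = 0.000335). Mmp8 was not above background on any array of 0 h and is not counted among the 8. The summed level of the 9 macrophage markers lay between 22.4 and 25.1 on the 0 h arrays, was 15.6 to 18.6 on the 1 h arrays and reached 28.7 to 33.7 on the 9 h arrays. Levels were summed on the linear scale, so the brightest genes, Aif1, Cd68 and Mrc1 (log2 means of 3.10, 2.52 and 2.42 at 0 h), make up most of it. The part of neutrophils in the rise of Fcgr2a and Msr1 was not tested.

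Of 6 T cell markers tested 3 were called higher at 9 h, where 15.8% of all genes were, with a summed level of 1.2 to 1.45 on the 0 h arrays and 1.53 to 2.63 on the 9 h arrays. Of 2 B cell markers 1, Blk, and the single dendritic cell marker tested, Ccr7, were called higher at 9 h, both dim and above background on 1 array of 0 h. Of 7 mast cell markers 0 were called at 9 h and 3 had an unadjusted P-value under 0.05, with a summed level of 13 to 14.6 on the 0 h arrays and 11.1 to 12.7 on the 9 h arrays. Among markers of the nerve's own cells, 5 of 6 fibroblast, 4 of 10 Schwann cell and 2 of 7 endothelial markers were called lower at 9 h, where 15.4% of all genes were, with median changes of -0.52, -0.07 and -0.14. One Schwann cell marker, Ngfr, was called higher. Skeletal muscle markers varied within groups, their summed level spanning 90.1 to 1458 on the 0 h arrays, 3.91 to 77.8 on the 1 h arrays and 2.75 to 117 on the 9 h arrays, and all 7 lay below 0 h at every later time, with median changes of -1.83, -4.72, -3.76, -3.25 and -3.78 in order of time. Of these 0 of 7 were called at 9 h, with 0 at an unadjusted P-value under 0.05. Of the 5 adipocyte and 3 erythroid markers tested 0 were called at any time-point. The erythroid markers had median changes of 1.65 at 0.5 h, 1.58 at 3 h and 0.68 at 9 h, with 2, 3 and 0 of them at an unadjusted P-value under 0.05. The adipocyte markers had medians of 0.90 at 0.5 h and 0.37 at 9 h, with 3 and 0 of them under that limit. The part of these cells in the fall of Adgre1 was not tested.

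**Figure D5:**
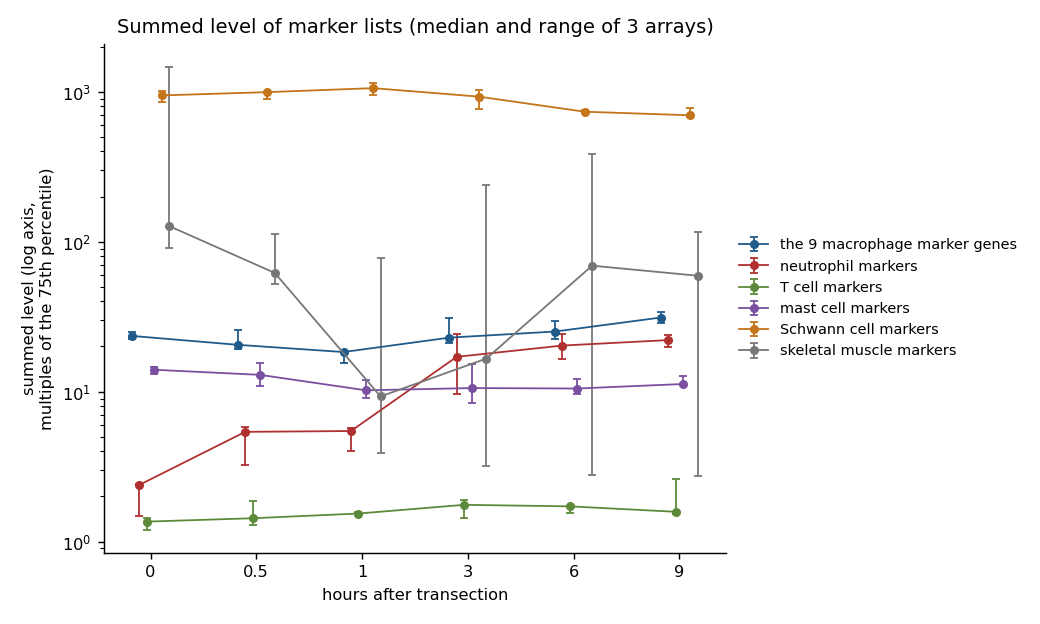
Summed level of marker lists (multiples of the 75th percentile of the array, log axis) by hours after transection, with points at the median of the 3 arrays and bars from the lowest to the highest. Neutrophil markers climbed from 0.5 h on, and skeletal muscle markers spread widely within a time-point. The sum of the 9 macrophage markers, made up mostly by Aif1, Cd68 and Mrc1, was lowest at 1 h and ended highest at 9 h.

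Promoter sequence was available from RefSeq (GRCr8) for 7 of the 9 genes, not for Aif1 and Msr1. The windows of 250 bases before to 50 after the start were searched on both strands for GAGGAA, the core bound by PU.1, a factor on which macrophages depend. It was found in 5 of the 7 (Adgre1, Cd68, Csf1r, Fcgr2a and Mrc1) and in 27.5% of all 27457 promoters. The longer GAGGAAGT, which contains it, was in 0 of the 7 and in 2.44% of all. TGAGTCA, the AP-1 motif, was in Cd68 alone, at 2 places, and in 4.53% of all. The 250 bases before the start are shown for a gene that rose early, one called higher at 6 h than at 1 h, and the one lower at 6 h and 9 h, with GAGGAA or its reverse complement in capitals:

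Fcgr2a, chr13:85828686-85828935, minus strand: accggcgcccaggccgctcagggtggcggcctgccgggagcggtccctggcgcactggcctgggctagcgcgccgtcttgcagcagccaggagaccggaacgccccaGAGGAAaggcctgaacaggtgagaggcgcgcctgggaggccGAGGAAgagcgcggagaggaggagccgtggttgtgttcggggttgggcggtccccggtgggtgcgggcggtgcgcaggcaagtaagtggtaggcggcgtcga
Cd68, chr10:54882442-54882691, minus strand: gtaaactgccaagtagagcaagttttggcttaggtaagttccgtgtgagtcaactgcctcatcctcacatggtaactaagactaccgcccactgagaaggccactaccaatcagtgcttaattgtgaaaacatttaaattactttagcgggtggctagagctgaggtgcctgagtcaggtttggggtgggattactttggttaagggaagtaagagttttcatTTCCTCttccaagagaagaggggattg
Adgre1, chr9:2329190-2329439, plus strand: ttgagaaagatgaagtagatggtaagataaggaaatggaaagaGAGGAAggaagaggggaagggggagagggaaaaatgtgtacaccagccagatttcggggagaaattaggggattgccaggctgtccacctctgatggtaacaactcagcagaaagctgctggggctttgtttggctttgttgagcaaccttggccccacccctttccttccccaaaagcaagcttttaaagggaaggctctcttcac

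Fcgr2a carries the motif at -143 and -102, Cd68 at -27 on the other strand and, past the bases shown, at 5 on the same strand, and Adgre1 at -207, counted from the start as +1 with no position 0. Both the rising Fcgr2a and the falling Adgre1 hold it, and a match of letters is no evidence of a bound site.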

How the data were processed

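RNA of proximal nerve segments was measured on 18 Agilent one-colour rat arrays, 3 per time-point, grouped by the sample labels. For every array the authors deposited what the scanner software wrote (Feature Extraction 10.5.1.1, per the file headers), whose processed signal is a linear intensity with background and spatial trends removed. A matrix of quantile-normalized log2 values, deposited beside it, served as an alternative, and every column of it matched a sample. Control and outlier spots were left out, spots of a probe were averaged, and the processed signal was divided by the 75th percentile of the same array, then put on the log2 scale. Probes were tested if 1 time-point or more had all 3 arrays well above background, and a gene with several probes is reported by the tested probe with the highest mean. Of 41012 probes, 16336 were named by looking up an accession in RefSeq gene records, and coordinates of probes are those of the files (rn4).

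All 6 time-points entered 1 limma fit (prior degrees of freedom 1.94), with Benjamini-Hochberg adjustment over 32116 probes. The members, the lists of related and cell type genes and the tests were chosen with earlier results of these data known. The text names every member, at most 4 genes of a list (those called in the F-test with the largest change against 0 h), and the 3 nearest genes of each member called in the F-test. Ccr2, Cd14 and Cx3cl1 were named outside that rule, after their values were seen. Some genes of the lists are counted with them but not reported here by name. Tried in turn were quantile normalization, normexp background correction (offset 50), centring each array on its median, the deposited matrix, keeping dim probes, only probes above background on all 18 arrays, the mean of a gene's tested probes, a block for replicate number, scan day or slide, a robust prior with a trend, array weights, the arrays of a comparison or of the second day alone, other thresholds, and the fit without each array. The number of arrays limits the precision. R 4.3.3, limma 3.58.1, statmod 1.5.0, version 1.17.8 of data.table, Python 3.11.15, pandas 2.3.3 and matplotlib 3.10.9 were used.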

Additional observations from a re-analysis of the deposited data

Results flagged for a closer look

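Another Csf1r probe, dimmer than the others, was not above background on all 3 arrays of any time-point and so was left out of the tests, yet it was well above background on 3 of the 18 arrays and on none of 0 h. Those arrays were 6 h replicate 1, at -4.09, and 9 h replicates 2 and 3, at -6.61 and -6.08, whereas the other arrays of 6 h read -8.17 and -8.21. The 6 h array is the one with the largest share of spots above background, 93.5%. The part of that array in the signal was not tested.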

How the results depend on the processing

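Calls of Fcgr2a at 3 h, 6 h and 9 h, of Msr1 at 6 h and 9 h, of Adgre1 at 6 h and of Cd163 at 9 h held under every alternative that could test them. The call of Adgre1 at 9 h held under all but the requirement of a 2-fold change. A block for scan day and the second day alone could not test these calls, since the 0 h arrays lie on another day. The calls thus stand without adjustment for scan day. The number of genes called at 1 h, 1 of 9, became 3 with array weights, 3 when arrays were centred on their medians, 2 with the mean of a gene's probes, 4 with the replicate block, and 0 with normexp, with the 2 time-points alone or with a 2-fold requirement. At 0.5 h it became 1 with the mean of probes, at 3 h 2 with array weights, and from 1 h to 6 h 2 with a 2-fold requirement. From 1 h to 3 h, where it was 3, it became 1 with the 2 time-points alone, with the second day alone, with a 2-fold requirement or with normexp, and 5 with the replicate block. Leaving out 1 array gave 0 to 2 genes at 1 h (0 without 0 h replicates 2 or 3 or 1 h replicate 1, and 2 without 0.5 h replicate 3), 1 to 4 from 1 h to 3 h (1 without 1 h replicates 1 or 3 or 3 h replicate 3), 0 to 0 at 0.5 h, 1 to 1 at 3 h, 3 to 4 at 6 h and from 1 h to 6 h, 4 to 5 at 9 h and 4 to 6 in the F-test. Csf1r turned to 0.80 at 6 h when its probes were averaged, and the same setting gave 1.11 at 0.5 h, 0.89 at 1 h and 1.17 at 9 h. That average includes a probe not above background on any 0 h array, so these are no measured changes. Normexp moved the median of all genes to 0.30 at 1 h and 0.44 at 3 h, and centring on the median moved it to -0.16 at 0.5 h and 9 h. Replicate numbers fell short of pairing the arrays: deviations of same-numbered arrays correlated from -0.26 to 0.56 (median 0.07), with 22 of 45 pairs over 0.1, against 28 of 90 pairs of different numbers (median 0.01). The same number correlated best in 38 of 90 comparisons of an array with another time-point, and always for 0 of 18 arrays. With the replicate block Cd163 was also called at 6 h (adjusted P = 0.0069) and Cx3cr1 in the F-test (adjusted P = 0.0188), as Cx3cr1 was without 9 h replicate 1 (0.0215) and, at 3 h, with array weights (-0.85, adjusted P = 0.0363). Dim probes such as that of Cx3cr1 are limited by signal over background.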
